A study of Zea mays with 12 samples.

Results

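The data described here are the transcriptomes of ear bract primordia of the *tsh1 tsh4* double mutant, set against those of the *tsh4* single mutant. Both genotypes are mutant for *tsh4*, and only the first is also mutant for *tsh1*, so the comparison asks what the loss of *tsh1* adds once *tsh4* is already mutated. The samples were chosen by genotype alone and comprise 6 of the 12 libraries of the series, with 3 biological replicates of each genotype. *tsh1 tsh4* plants carried the alleles *tsh1-ref*, a *Mutator* transposon insertion paired with a large deletion, and *tsh4-rm*, a *Mutator* insertion in the first intron of *tsh4*. *tsh4* plants carried *tsh4-rm* and an intact *tsh1*. Both alleles had been introgressed repeatedly into the inbred B73, and each mutant locus was thus represented by 1 allele in 1 inbred background. The other 6 libraries, 3 of *tsh1* single mutants with *tsh1-ref* and 3 of wild-type B73, show the loss of *tsh1* with *tsh4* intact. All plants were maize grown in a greenhouse. Cells were cut by laser from sections of young ears at early nodes that showed a bract ridge before any meristem stood out beside it, and their RNA was amplified in vitro before sequencing.

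Bracts are leaves that subtend the branches and flowers of an inflorescence. In maize and most other grasses, the bracts below branches and spikelets start as a ridge and then stop growing, while an axillary meristem forms beside them. *tsh1* encodes a GATA zinc-finger transcription factor and *tsh4* an SBP-box transcription factor, and both are known to suppress bract growth and to promote branching. Their mutants form bracts where the wild type has none, and the double mutant is more severe than either single mutant.

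Values are normalized CPM, that is, reads per gene scaled to library size. Between 57880634 and 80693811 reads fell on genes in the 3 *tsh1 tsh4* libraries and between 50762256 and 97914591 in the 3 *tsh4* libraries. A gene counted as detected above 3 reads, which is 0.038 to 0.052 CPM in *tsh1 tsh4* and 0.031 to 0.059 CPM in *tsh4*. This floor covers counting error only, because reads of amplified RNA are not independent molecules. Pearson's r of log2(CPM + 0.1) across genes was 0.970 to 0.986 between *tsh1 tsh4* libraries and 0.986 to 0.989 between *tsh4* libraries. These are correlations across genes, and genes do not count as replicates. *tsh1 tsh4* replicate 1 had r of 0.982 to 0.984 with the *tsh4* libraries, of 0.982 with *tsh1 tsh4* replicate 3 and of 0.970 with *tsh1 tsh4* replicate 2, so it was no closer to its own genotype than to *tsh4*. Each of the 20168 genes was tested with limma on log2(CPM + 0.1), and p-values received a Benjamini-Hochberg adjustment across the whole table. A gene was differentially expressed (a DEG) where the adjusted p did not exceed 0.05 and expression changed by at least 1 log2 unit. Fold changes on this scale understate those of weakly expressed genes.

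Expression of *tsh1* (GRMZM2G325850) was 0.502, 0.458, and 0.604 CPM in the 3 *tsh1 tsh4* libraries, against 25.3, 18.7, and 23.6 CPM in *tsh4*. All *tsh1 tsh4* libraries were far below all *tsh4* libraries, at −5.18 on the log2 scale (SE 0.27, adjusted p = 6.14e-09). In the single mutant and its wild type, *tsh1* was at 0.527 ± 0.246 CPM in *tsh1* and 67.4 ± 19.6 CPM in B73 (SD, n = 3 each). Its expression was already lower in *tsh4* than in B73, with a log2 fold change of −1.55 in limma (SE 0.27, adjusted p = 0.00168). The loss of *tsh1* thus started from a lower level in the *tsh4* background. The deposited table does not pair this identifier with a name, and the row was recognized by its levels across the genotypes, so it is no independent check of the labels. *tsh4* (GRMZM2G307588) was at 76.6, 43.3, and 60.4 CPM in *tsh1 tsh4*, against 65.5, 81.1, and 74.5 CPM in *tsh4*. These groups overlapped (log2 fold change −0.33, SE 0.23, adjusted p = 0.965), and *tsh4* transcript remained in both, beside 1063 ± 273 CPM in *tsh1* and 1323 ± 249 CPM in B73 (SD, n = 3 each). The *tsh1-ref* deletion takes in 3 further genes, and its extent had been inferred from these same libraries. GRMZM2G026013 and GRMZM5G847466 had 0 CPM in every *tsh1 tsh4* library. In *tsh4*, GRMZM2G026013 had 10.9, 13.0, and 11.3 CPM and GRMZM5G847466 had 2.07, 2.29, and 2.19 CPM. Against the floor of 3 reads per library, they were at least 258-fold and 47.9-fold lower in *tsh1 tsh4*. The third, GRMZM2G026188, was also at 0 in *tsh1 tsh4* and at 0.260, 0.282, and 0.312 CPM in *tsh4*, at least 6.24-fold lower in *tsh1 tsh4*.

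Few genes passed the threshold between *tsh1 tsh4* and *tsh4*, which also differ by the further genes of the *tsh1-ref* deletion. A gene that did not pass is not thereby shown to be unchanged. Of 20168 genes, 136 were DEGs, which is 0.674% of those tested, with 71 higher (0.352%) and 65 lower (0.322%) in *tsh1 tsh4*. The libraries of both genotypes did not overlap for any of the 136, whereas 1981 genes (9.82%) did not overlap in all. By adjusted p alone, 151 genes passed (0.749%), and 1338 had an unadjusted p of at most 0.05 (6.63%). The median log2 fold change was 2.02 among the DEGs that rose and −1.78 among those that fell, and the median over all genes was −0.0023. At least 4-fold changes were found for 38 of the higher and 25 of the lower DEGs. Of the 136 DEGs, 116 reached a mean of 1 CPM in the higher genotype, but 94 stayed under 10 CPM there, and the median was 3.79 CPM. The number of DEGs depended on single libraries and was 74 without *tsh4* replicate 2, 71 without *tsh4* replicate 3, and 85 without *tsh1 tsh4* replicate 3. It also depended on the test and was 214 with DESeq2 and 252 with the edgeR exact test. The DEGs that were called again in every one of 23 alternative fits that tested them numbered 45, with 23 higher and 22 lower, and *tsh1*, *drl2*, *ZmIAA22*, *SRS2*, *sbp29*, *EREB121*, *mir2*, and *Cel20* were among them.

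**Figure D1:**
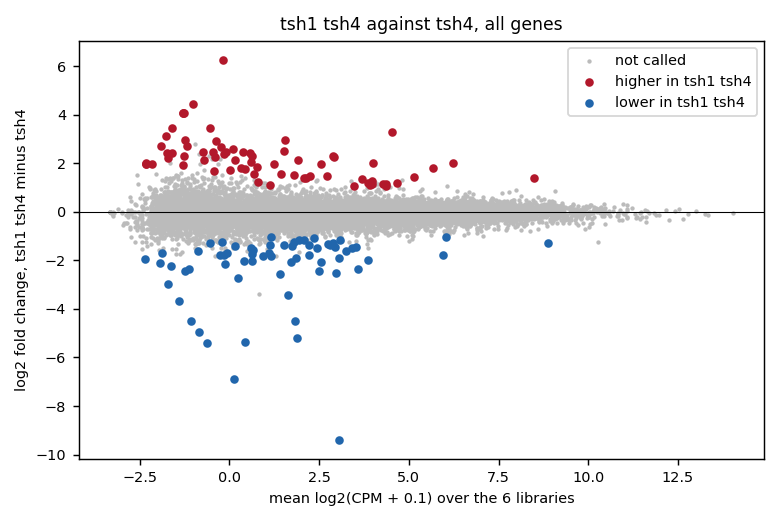
Log2 fold change of *tsh1 tsh4* over *tsh4* (vertical axis) against the mean of log2(CPM + 0.1) over the 6 libraries (horizontal axis), 1 point per gene. The 71 genes that rose and the 65 that fell are colored, and 94 of these 136 DEGs were under 10 CPM in the higher genotype.

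*drl2* (*drooping leaf2*, GRMZM2G102218), a YABBY transcription factor that patterns the midrib and growth of maize leaves, was at 7.86, 6.25, and 6.21 CPM in *tsh1 tsh4*, against 1.17, 0.864, and 1.39 CPM in *tsh4*. Every *tsh1 tsh4* library was above every *tsh4* library, and the log2 fold change was 2.49 (SE 0.33, adjusted p = 6.16e-04). Of 9 YABBY genes listed, *drl2* alone was called, beside 0.674% of all genes. A positive log2 fold change was found for 8. No overlap between the genotypes was found for 4, all higher in *tsh1 tsh4*, beside 4.35% of all genes. These 4 (*drl1*, *drl2*, *yab3*, and *zyb14*) are among the genes the study named as raised in the mutants of this series. Their direction is thus not independent evidence. Among those not called, the paralog *drl1* averaged 11.2 ± 5.74 CPM in *tsh1 tsh4* and 5.46 ± 0.873 CPM in *tsh4* (adjusted p = 0.248). *yab3* averaged 10.5 ± 1.99 and 6.21 ± 0.520 CPM (adjusted p = 0.296) and *zyb14* 199 ± 61.8 and 132 ± 8.6 CPM (adjusted p = 0.568) in the same order. *SRS2* (GRMZM2G042407), of the SHI-related zinc-finger family that in *Arabidopsis* promotes auxin synthesis in young organs, was at 5.58, 2.54, and 2.62 CPM in *tsh1 tsh4* and at 0.562, 0.507, and 0.586 CPM in *tsh4*. Its libraries did not overlap, and expression changed by 2.40 on the log2 scale (SE 0.33, adjusted p = 7.35e-04), and it was 1 of 2 listed members of its family.

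Among other transcription factors, DEGs were found in the bHLH, SBP-box, and AP2 and ERF families, mostly with higher expression in *tsh1 tsh4*. Counts called in these lists stand beside 0.674% of all genes. The SBP-box gene *sbp29* (GRMZM2G067624), of the same family as *tsh4*, was the most strongly expressed gene to rise. It had 510, 534, and 722 CPM in *tsh1 tsh4*, against 248, 197, and 214 CPM in *tsh4*, or 1.41 on the log2 scale (SE 0.20, adjusted p = 0.00115). It was the only one of 20 listed SBP-box genes to be called. The close *tsh4* relatives *ub2* and *ub3*, which act with *tsh4* in branching, had log2 fold changes of −0.18 and −0.53 with overlapping libraries. *EREB121* (GRMZM2G176175), an AP2-type factor also named *sid1*, is known as a partner of *ids1* in fixing the fate of spikelet and floral meristems. Its libraries stood at 88.5, 69.0, and 147 CPM in *tsh1 tsh4* and at 31.3, 25.1, and 25.7 CPM in *tsh4*, without overlap (log2 fold change 1.82, SE 0.23, adjusted p = 3.99e-04). It was the only one of 29 AP2 and ERF genes called.

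The bHLH family had 3 DEGs of 34 listed members, beside 0.674% of all genes. *bHLH23* (GRMZM2G178182) was at 176, 117, and 167 CPM in *tsh1 tsh4* and at 39.9, 35.8, and 36.0 CPM in *tsh4*. The log2 fold change was 2.02 (SE 0.40, adjusted p = 0.0218), on top of a level in *tsh4* that already exceeded the 1.64 ± 1.29 CPM of B73. *PIF4*, named for the phytochrome-interacting factors, rose with a log2 fold change of 1.04 (adjusted p = 0.0358), and *bHLH7* fell with −1.45 (adjusted p = 0.0303). None of these 3 calls survived every fit that left out 1 library. Without *tsh4* replicate 3, the adjusted p was 0.120 for *bHLH23* and 0.202 for *bHLH7*, and without *tsh1 tsh4* replicate 3 it was 0.211 for *PIF4*. *bHLH23* was also lost without *tsh4* replicate 1 or 2 or *tsh1 tsh4* replicate 3, and *bHLH7* without *tsh4* replicate 2 or *tsh1 tsh4* replicate 2. *PIF4* was lost without any 1 of the *tsh4* libraries and without B73 replicate 2 or 3 or *tsh1* replicate 3.

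No listed gene of the TCP (7 genes), GRF and GIF (19), KNOX and other homeobox (30), NAC (13), MADS (17), MYB (36), bZIP (26), or WRKY (13) families was called. With 0.674% of all genes called, lists of such sizes would mostly hold no DEG, so this absence does not set the families apart. Lists were built from gene names. The MADS list held *m15*, *m16*, *m18*, and *m19*, but not the DEG *m20* given below, whose name is of the same series. The GRF and GIF list also took in *GF14-12* and *GF14-6*. In the MYB family, 8 of 36 genes had *tsh1 tsh4* libraries all below the *tsh4* libraries and none had them all above, beside 5.47% and 4.35% of all genes. Its median log2 fold change was −0.21. The listed cyclin and replication genes (24), histones (9), and ribosomal protein genes (31) had no DEG either, with the same limit. Their median log2 fold changes were 0.045, −0.15, and −0.0045.

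Among genes of auxin, cytokinin, and jasmonate pathways, 1 of each list was called, beside 0.674% of all genes. *ZmIAA22* (GRMZM2G128421, named *IAA12* in the gene table), a member of the Aux/IAA family of auxin-response repressors, was at 2.22, 1.77, and 2.07 CPM in *tsh1 tsh4*. In *tsh4* it was at 0.156, 0.038, and 0.527 CPM, and at 0 in all B73 libraries. Its log2 fold change was 2.91 (SE 0.45, adjusted p = 0.00281). The other 18 of 19 genes on the Aux/IAA list were not called, and this list, built from names, also held *abp1* and *aic1*. Of these 18, 4 genes had all *tsh1 tsh4* libraries below all *tsh4* libraries, beside 5.47% of all genes. No listed ARF gene (18) was called. *crr2* (GRMZM2G392101), a cytokinin response regulator, rose by 1.5 on the log2 scale (SE 0.33, adjusted p = 0.0439) and was the only one of 19 cytokinin genes called. Its call was lost in 8 of 12 fits that left out a library, with an adjusted p of 0.263 without *tsh4* replicate 2. The other 7 left out *tsh4* replicate 1 or 3, *tsh1 tsh4* replicate 2 or 3, *tsh1* replicate 1 or 3, or B73 replicate 2. *aos1*, an allene oxide synthase at the entry to jasmonate synthesis, rose to 3.36 ± 1.68 CPM in *tsh1 tsh4*, against 0.824 ± 0.251 CPM in *tsh4* (log2 fold change 1.84, SE 0.39, adjusted p = 0.0368). Among 28 jasmonate genes it alone was called, and it was lost in 6 of 12 such fits, with an adjusted p of 0.172 without *tsh4* replicate 1. The others left out *tsh4* replicate 2 or 3, *tsh1 tsh4* replicate 1 or 3, or *tsh1* replicate 3.

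In abscisic acid pathways, 3 of 43 listed genes fell and none rose, beside 0.322% and 0.352% of all genes. No overlap was found for 5 genes with higher and 7 with lower expression, beside 4.35% and 5.47%. *PYL5* (GRMZM2G057959), of the abscisic acid receptor family, was at 1.03, 0.584, and 0.276 CPM in *tsh1 tsh4*, against 2.44, 2.55, and 2.77 CPM in *tsh4* (log2 fold change −2.02, SE 0.34, adjusted p = 0.00668). Without *tsh4* replicate 3, its adjusted p was 0.0501. It is a different gene from GRMZM2G144224, which the study names *ZmPYL5* and which was at 0.163, 0.221, and 0.328 CPM in *tsh1 tsh4* and 1.12, 0.582, and 0.605 CPM in *tsh4*. Those libraries did not overlap either, but the gene was not called (log2 fold change −1.34, SE 0.37, adjusted p = 0.153). *aba1* (GRMZM2G136910, also *asr1*), a gene of the abscisic acid, stress, and ripening family, fell to 2.85 ± 1.01 CPM in *tsh1 tsh4*, against 11.9 ± 1.26 CPM in *tsh4* (log2 fold change −2.08, adjusted p = 0.0306). *vp9* (GRMZM2G454928), a zeta-carotene desaturase of the carotenoid pathway from which abscisic acid is made, fell with a log2 fold change of −1.83 (adjusted p = 0.0444). Its identifier matched 2 entries of the gene table, and another identifier listed under the name *vp9* was not called. The calls of *aba1* and *vp9* were lost in 5 and 7 of the 12 fits without 1 library. The highest adjusted p-values were 0.158 for *aba1* without *tsh1 tsh4* replicate 2 and 0.282 for *vp9* without *tsh4* replicate 3. Both were also lost without *tsh4* replicate 2 or *tsh1 tsh4* replicate 3, *aba1* without *tsh4* replicate 1 or 3, and *vp9* without *tsh1 tsh4* replicate 2, B73 replicate 2 or 3, or *tsh1* replicate 3. The median log2 fold change of the 43 genes was −0.050.

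Genes of defense, water transport, and the cell wall completed the named DEGs. *mir2* (GRMZM2G150256), a cysteine protease of the family of the insect-resistance protein Mir1, had the largest log2 fold change among risen DEGs with a gene name. It was at 55.3, 74.9, and 92.4 CPM in *tsh1 tsh4*, against 10.8, 12.8, and 2.81 CPM in *tsh4* (log2 fold change 3.29, SE 0.44, adjusted p = 6.50e-04). The *tsh4* libraries were the low ones of the series, since *mir2* was at 68.4 ± 17.7 CPM in *tsh1* and 48.4 ± 23.3 CPM in B73. Of 6 benzoxazinoid genes, which make the defense compounds of young maize tissue, 2 were called, beside 0.674% of all genes. *BX5* was at 4.43, 6.27, and 3.38 CPM in *tsh1 tsh4* and 0.823, 1.11, and 1.45 CPM in *tsh4* (log2 fold change 1.95, SE 0.38, adjusted p = 0.0199). *BX3* was at 1.1, 2.31, and 0.845 CPM and 0.115, 0.188, and 0.176 CPM in the same order (log2 fold change 2.44, SE 0.50, adjusted p = 0.0299). Between them on chromosome 4, *BX4* had 1.15, 2.67, and 0.862 CPM in *tsh1 tsh4* and 0.187, 0.413, and 0.098 CPM in *tsh4* and narrowly missed the threshold (log2 fold change 2.28, adjusted p = 0.0535). These 3 genes are cytochrome P450 paralogs, and how reads shared between copies were counted is not stated. The calls of *BX3* and *BX5* were lost without *tsh1 tsh4* replicate 2 (adjusted p = 0.183 and 0.122) and without *tsh4* replicate 1 or 2. *BX3* was also lost without *tsh4* replicate 3 or *tsh1 tsh4* replicate 3. With a pseudocount of 0.01 neither was called (adjusted p = 0.177 for *BX3* and 0.481 for *BX5*), and *BX5* had an adjusted p of 0.0895 by the edgeR quasi-likelihood test.

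The aquaporin *PIP1-1*, a water channel of the plasma membrane, rose to 24.8 ± 6.39 CPM in *tsh1 tsh4*, against 10.1 ± 2.46 CPM in *tsh4* (log2 fold change 1.28, adjusted p = 0.0255). It was the only one of 18 aquaporin genes called, beside 0.674% of all genes. Without *tsh4* replicate 3 its adjusted p was 0.166, and the call also ended without *tsh4* replicate 2 or *tsh1 tsh4* replicate 1 or 3. *Cel20* (GRMZM2G453565), listed as a cellulase, was at 1.84, 2.15, and 3.54 CPM in *tsh1 tsh4* and 8.45, 7.88, and 9.64 CPM in *tsh4*. The groups were well apart (log2 fold change −1.80, SE 0.23, adjusted p = 4.74e-04), and no other gene of 22 in the cell wall list was called. Of further genes with a name and no role given here, *m20* (GRMZM2G059102) rose with a log2 fold change of 2.45 (adjusted p = 0.0358), and its call was lost in 6 of 12 fits without 1 library (adjusted p = 0.237 without *tsh4* replicate 3, and otherwise without *tsh4* replicate 1, *tsh1 tsh4* replicate 2 or 3, *tsh1* replicate 1, or B73 replicate 2). *sfp1* (GRMZM2G159632) rose with 2.15 (adjusted p = 0.00596), or 0.0525 without *tsh4* replicate 2.

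**Figure D2:**
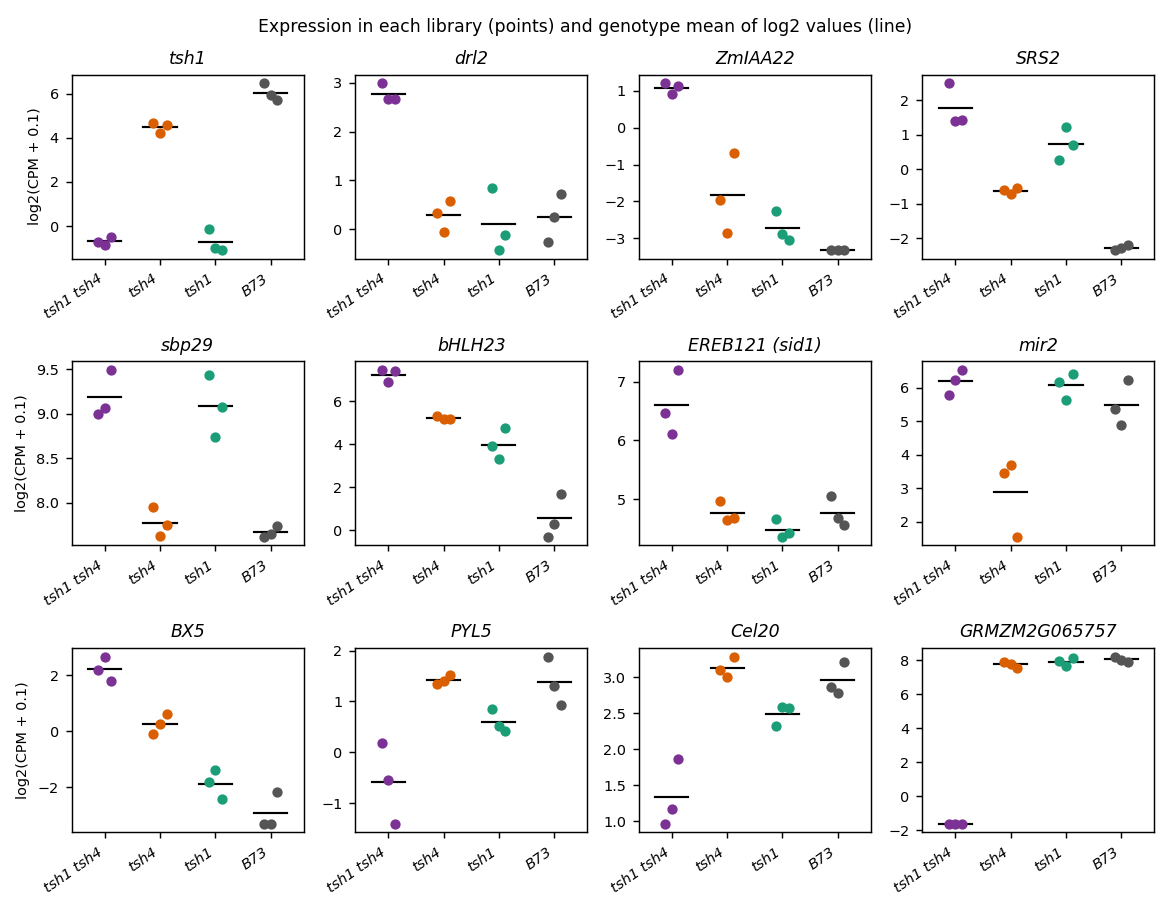
Expression of 12 genes as log2(CPM + 0.1), 1 point per library and a line at the mean of each genotype, for *tsh1 tsh4*, *tsh4*, *tsh1*, and B73 from left to right (3 libraries each). *drl2*, *EREB121*, and GRMZM2G065757 stand apart in *tsh1 tsh4* from all other genotypes, *mir2* is low in *tsh4*, and *sbp29* and *SRS2* are higher in both genotypes that lack *tsh1* than in their counterparts with *tsh1*.

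The study names 55 genes in leaf expansion, meristem initiation, boundary, ligule, and hormone pathways that changed in the mutants against B73. This list was chosen on these samples, so it is not independent evidence of direction. Of the 55, 2 were DEGs of *tsh1 tsh4* against *tsh4*, beside 0.674% of all genes. Both, *drl2* and *ZmIAA22*, rose. No overlap between genotypes was found for 10 genes with higher and 7 with lower expression, beside 4.35% and 5.47% of all genes, and the median log2 fold change was −0.23. In the leaf expansion and patterning group, 10 of 13 genes had positive log2 fold changes, the median was 0.55, and 5 were without overlap, all higher in *tsh1 tsh4*, as were 4.35% of all genes. *ZmNGA2*, a B3-domain factor, averaged 5.84 ± 1.86 CPM in *tsh1 tsh4* and 3.63 ± 0.856 CPM in *tsh4*. *ZmTCP2*, of the TCP family that controls the growth of leaves and branches, averaged 7.51 ± 0.873 CPM and 5.22 ± 0.805 CPM in the same order. Neither was called (adjusted p = 0.564 and 0.707).

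Both meristem initiation genes had lower values in *tsh1 tsh4* without reaching the threshold. *ba1* (*barren stalk1*, GRMZM2G397518), a bHLH factor required for axillary meristems, was at 45.6, 38.0, and 59.7 CPM in *tsh1 tsh4*, against 81.8, 63.1, and 125 CPM in *tsh4*. The groups did not overlap, and the log2 fold change was −0.88 (SE 0.22, adjusted p = 0.0966). *baf1* (*barren stalk fastigiate1*), which acts with *ba1* in ears, was at 7.91, 9.52, and 11.7 CPM in *tsh1 tsh4* and 23.4, 12.2, and 15.2 CPM in *tsh4* (log2 fold change −0.76, adjusted p = 0.305). The ligule gene *lg2* (*liguleless2*, GRMZM2G060216), a bZIP factor, was at 13.2, 5.53, and 14.3 CPM in *tsh1 tsh4* and 28.9, 16.7, and 22.9 CPM in *tsh4*. It was not called (log2 fold change −1.13, SE 0.29, adjusted p = 0.122), although every *tsh1 tsh4* library was below every *tsh4* library. *ZmATH1*, a homeobox gene of organ boundaries, averaged 69.6 ± 20.9 CPM and 97.0 ± 10.2 CPM in the same order (adjusted p = 0.728). In the abscisic acid group of 12, *ZmICE1* had 15.4, 15.9, and 14.1 CPM in *tsh1 tsh4* and 9.26, 7.19, and 9.06 CPM in *tsh4* (log2 fold change 0.83, SE 0.20, adjusted p = 0.0904). None of the 7 gibberellin, 4 cytokinin, and 2 jasmonate genes was called. Medians were −0.36, −0.24, and −0.81 in these groups, −0.56 in the abscisic acid group, and −0.060 in the auxin group of 10. Genes named in this and the preceding paragraph without a call were chosen after their values were seen.

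**Figure D3:**
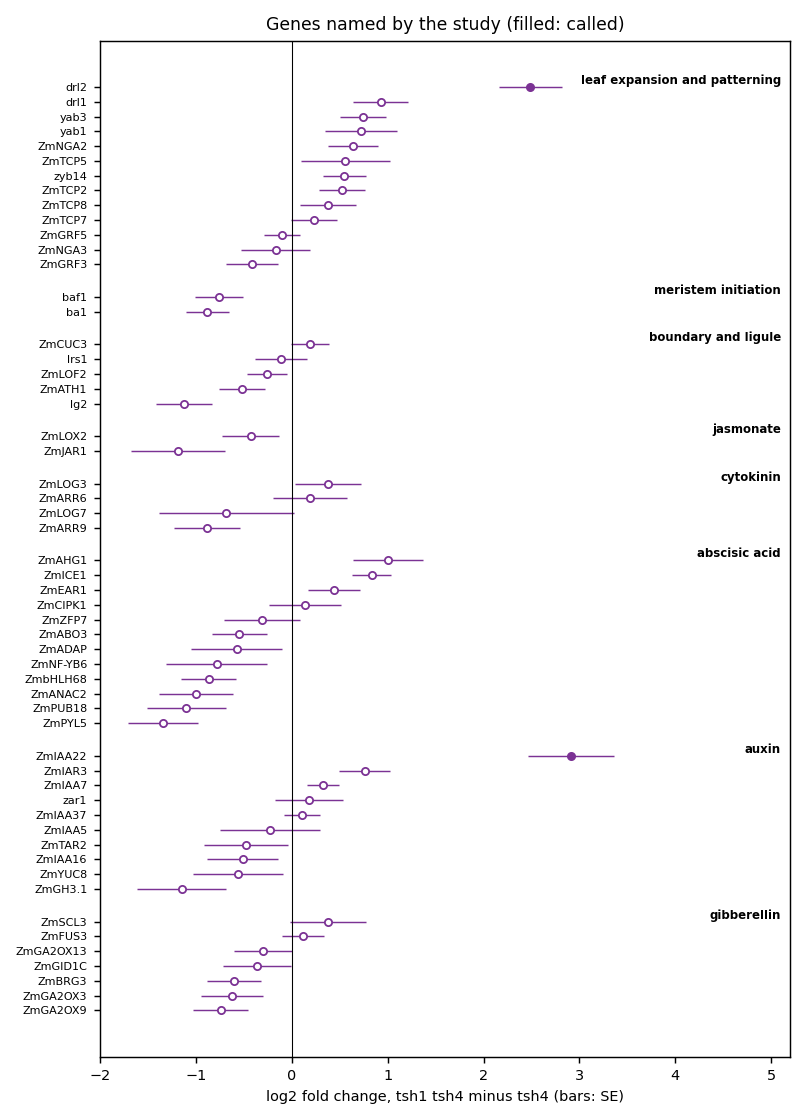
Log2 fold change of *tsh1 tsh4* over *tsh4* with its SE for the 55 genes named by the study, in groups, each labelled at its top. Filled points are the 2 DEGs, *drl2* and *ZmIAA22*, and open points did not pass the threshold.

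The bract marker did not differ detectably, while the summed levels of the epidermal and the axillary meristem lists were lower in *tsh1 tsh4*, without overlap and without a test of the sums. *zyb15*, the YABBY gene that marks bract primordia, was at 1551 ± 179 CPM in *tsh1 tsh4* and 1496 ± 135 CPM in *tsh4* (log2 fold change 0.05, SE 0.21, adjusted p = 0.987). The meristem gene *kn1* was at 103, 234, and 187 CPM in *tsh1 tsh4*, against 133, 78.4, and 125 CPM in *tsh4*. These groups overlapped (log2 fold change 0.60, SE 0.30, adjusted p = 0.802), and *kn1* was clearly detected in every library. The meristem markers *gn1*, *td1*, and *fea2* were not called either, with overlapping libraries and log2 fold changes of 0.53, −0.51, and 0.23. All 4 epidermal *ocl* genes had negative log2 fold changes, of −0.27 to −0.46, and 2 were without overlap, but none was called. Their summed level was 879.8 to 1161 CPM in *tsh1 tsh4* and 1247 to 1487 CPM in *tsh4*, without overlap. It was 951.8 to 1167 CPM in B73 and 1069 to 1649 CPM in *tsh1*, so *tsh1 tsh4* overlapped both, and *tsh4* was above B73. In bulk samples such as these, fewer cells of a type and less RNA per cell cannot be told apart. The 4 axillary meristem and boundary markers (*ba1*, *baf1*, *ra1*, *ra3*) summed to 54.1 to 77.5 CPM in *tsh1 tsh4* and 82.9 to 150.1 CPM in *tsh4*, and *ba1* makes up most of that sum. Of these markers, *ra1* alone had a positive log2 fold change (0.55, overlapping libraries). Photosynthesis genes (9) summed to 254.7 to 400.9 CPM and 377.1 to 480.2 CPM, and heat shock genes (22) to 5243 to 6693 CPM and 5660 to 6964 CPM, in the same order of genotypes, with no DEG in either list. The part of such shifts in tissue in the changes above was not tested.

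The *tsh1-ref* mutation was next followed in the background with intact *tsh4*, where *tsh1* expression was higher to begin with. *tsh1* against B73 shares no library with *tsh1 tsh4* against *tsh4*, and it gave 234 DEGs (1.16% of genes tested), of which 89 rose (0.441%) and 145 fell (0.719%). The comparisons had 40 DEGs in common, which is 29.4% of the 136 and 17.1% of the 234. All 40 changed in the same direction, with 17 higher and 23 lower in the mutants lacking *tsh1*. The 40 include *tsh1* and the 3 deletion genes, whose fall in both comparisons was set by the *tsh1-ref* allele that both carry. The median absolute log2 fold change of these 40 was 1.95 in the *tsh4* background and 2.10 in B73, and it was the smaller in the *tsh4* background for 27. Of the other 96 DEGs of *tsh1 tsh4* against *tsh4*, 62 had the same sign in *tsh1* against B73. Of these 62, 25 had an unadjusted p of at most 0.05 there. Counting either direction, 9.3% of all genes had such a p, and the share for 1 direction was not computed.

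*SRS2*, *bHLH23*, *sbp29*, and *crr2* were the shared DEGs with a gene name other than *tsh1*. *SRS2* had log2 fold changes of 2.40 in the *tsh4* background and 3.00 in B73, and *sbp29* had 1.41 and 1.42. *sbp29* was at 693, 427, and 540 CPM in *tsh1* and at 195, 199, and 214 CPM in B73, so its level followed *tsh1* alone in these libraries. *bHLH23* had log2 fold changes of 2.02 and 3.43, with 17.0 ± 8.68 CPM in *tsh1* and 1.64 ± 1.29 CPM in B73. Among shared DEGs without a name, GRMZM2G104204 was at 19.5, 14, and 15.7 CPM in *tsh1 tsh4*, against 2.61, 3.75, and 3.38 CPM in *tsh4*. In the other pair it was at 8.03 ± 1.62 CPM in *tsh1* and 0.607 ± 0.160 CPM in B73. GRMZM2G124477 and GRMZM2G027302 rose with log2 fold changes of 2.47 and 2.65 in the *tsh4* background and 3.33 and 2.01 in B73. GRMZM2G027302 was not called in the *tsh4* background with a pseudocount of 0.01 (adjusted p = 0.0755). The shared falls with the largest fold changes in the *tsh4* background were *tsh1*, the deletion gene GRMZM2G026013, GRMZM2G089549, and GRMZM2G101928. GRMZM2G101928, on chromosome 10, was at 0 in all *tsh1 tsh4* libraries and at 3.71, 4.62, and 4.04 CPM in *tsh4*, at least 90.4-fold lower in *tsh1 tsh4*. In *tsh1* it was at 0.008 ± 0.0139 CPM and in B73 at 1.75 ± 0.335 CPM. The members of this paragraph chosen by overlap were picked after their values were seen.

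**Figure D4:**
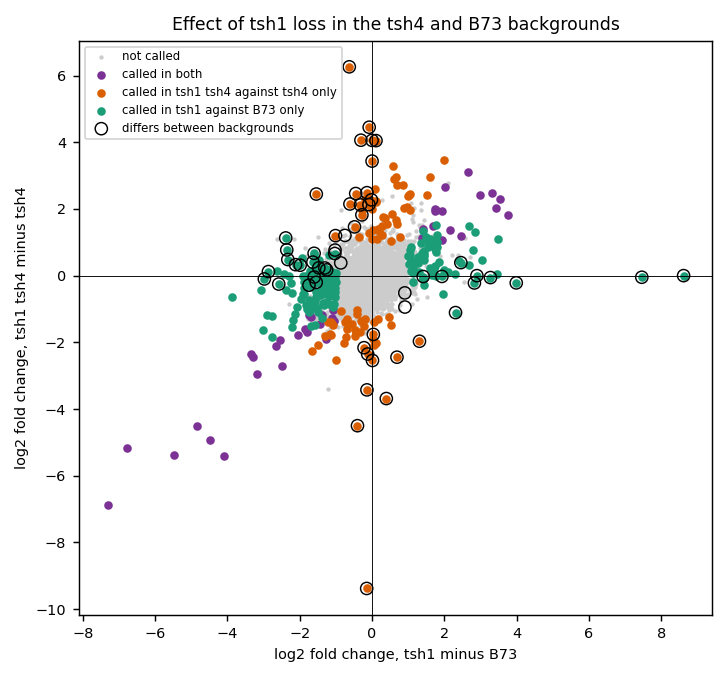
Log2 fold change on loss of *tsh1* in the *tsh4* background (vertical axis) and in B73 (horizontal axis), 1 point per gene, with DEGs colored by comparison and circles around the 58 genes whose effect differed between backgrounds. The 40 DEGs of both comparisons lie in the quadrants of equal sign, and none of them is circled.

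The effect of *tsh1* loss differed between backgrounds for 58 genes (0.288% of those tested), by the contrast of both fold changes in limma at an adjusted p of at most 0.05. The difference was positive for 36 (0.179%) and negative for 22 (0.109%). They included 26 of the 136 DEGs of *tsh1 tsh4* against *tsh4*, 27 of the 234 DEGs of *tsh1* against B73, none of the 40 shared DEGs, and 5 genes of neither list. Among those 26, the log2 fold change in B73 had the same sign for 6, and for the other 20 it had the opposite sign or was 0. It was 0 for GRMZM2G704448 and GRMZM2G472096, and none of the 26 was a DEG of *tsh1* against B73. The count was 37 without B73 replicate 3, 34 without *tsh4* replicate 2, and 36 without *tsh1 tsh4* replicate 3. *drl2* was the study gene among them. It was at 6.78 ± 0.943 CPM in *tsh1 tsh4* and 1.14 ± 0.262 CPM in *tsh4*, and at 1.06 ± 0.567 CPM in *tsh1* and 1.13 ± 0.409 CPM in B73. The difference of its fold changes was 2.63 (SE 0.46, adjusted p = 0.0183), and it passed in 7 of 12 fits without 1 library, the highest adjusted p being 0.0748 without *tsh4* replicate 2. *EREB121* had a like pattern, with 102 ± 40.6 CPM in *tsh1 tsh4* and 27.4 ± 3.46 CPM in *tsh4*, and 22.4 ± 2.52 CPM in *tsh1* and 27.4 ± 5.13 CPM in B73. Its difference was 2.10 (SE 0.33, adjusted p = 0.00548) and passed in all 12 such fits.

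The largest differences belonged to genes that were nearly on or off in 1 genotype. GRMZM2G065757 was at 0.226, 0.221, and 0.224 CPM in *tsh1 tsh4*, against 242, 220, and 188 CPM in *tsh4* (log2 fold change −9.38, SE 0.16, adjusted p = 6.58e-16). It was the largest change of the comparison, and the gene was at 241 ± 40.2 CPM in *tsh1* and 265 ± 27.9 CPM in B73. GRMZM2G140160 was the largest rise, with 6.02, 5.43, and 13.2 CPM in *tsh1 tsh4* and 0 CPM in all *tsh4* libraries, at least 169-fold higher in *tsh1 tsh4*. It was near 0 in the other genotypes too, at 0.016 ± 0.0277 CPM in *tsh1* and 0.0877 ± 0.0813 CPM in B73. Likewise, 4 DEGs were above 3 reads in all *tsh1 tsh4* libraries and in none of the other 9. GRMZM2G704448 had 1.55, 1.53, and 1.60 CPM in *tsh1 tsh4*, GRMZM2G035726 had 1.82, 1.83, and 3.28 CPM, GRMZM2G472096 had 1.28, 0.758, and 0.966 CPM, and GRMZM2G013060 had 0.351, 0.237, and 0.310 CPM. Against the floor in *tsh4*, they were at least 32.1-fold, 47.4-fold, 20.6-fold, and 6.14-fold higher in *tsh1 tsh4*. With a pseudocount of 1, the log2 fold change of GRMZM2G472096 was 0.99, under the threshold, and GRMZM2G013060 was not called either. The call of GRMZM2G013060 was also lost without *tsh1 tsh4* replicate 3 (adjusted p = 0.0595).

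Others were off in *tsh4* or high only there. GRMZM2G129146 was at 1.27, 2.23, and 1.36 CPM in *tsh1 tsh4* and at 0 in all *tsh4* libraries, at least 33.2-fold higher in *tsh1 tsh4*, whereas *tsh1* and B73 had 1.13 ± 0.36 and 1.42 ± 0.419 CPM. GRMZM2G381842 was at 0.885, 1.5, and 1.46 CPM in *tsh4* and had at most 1 read in any *tsh1 tsh4* library, at least 28.2-fold lower in *tsh1 tsh4*. A different pair of genes was high in *tsh1* single mutants alone. GRMZM2G456853 was at 0 in every *tsh1 tsh4* and *tsh4* library, and at 36.1, 28.5, and 58.8 CPM in *tsh1* but at 0 in B73. GRMZM2G120833 was at 0.0247 ± 0.0075 CPM in *tsh1 tsh4* and 0.0347 ± 0.0516 CPM in *tsh4*, and at 19.1 ± 1.54 CPM in *tsh1* and 0.009 ± 0.009 CPM in B73. GRMZM2G066805 was at 3.01 ± 0.917 CPM in *tsh1 tsh4* and 3.43 ± 0.505 CPM in *tsh4*, and at 1.64 ± 0.596 CPM in *tsh1* and 0.0057 ± 0.0098 CPM in B73, so it was under the floor only in the wild type.

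Some DEGs lay close together along the chromosomes. Of the 136, 85 could be placed in the gene order of a later maize assembly, with 13955 genes placed in all, a mean of 0.609 DEGs per 100 placed genes. In sliding windows of 100 consecutive placed genes, the highest count was 9, reached once on chromosome 6 and once on chromosome 7, while no window of another chromosome held more than 3. The windows were chosen after the values were seen, so these counts are a description with no test. The chromosome 6 window contains the genes of the *tsh1-ref* deletion. Its 9 DEGs (2 higher, 7 lower) were the 3 deletion genes and GRMZM2G170400, GRMZM2G069016, GRMZM2G065757, GRMZM2G463738, GRMZM2G414844, and GRMZM2G089549. In *tsh1* against B73, 18 genes of this window were DEGs, and 5 were shared. GRMZM2G065757 was the one DEG of this window whose effect differed between backgrounds. GRMZM2G089549, 7 placed genes from GRMZM2G026013, was at 0.226, 0.111, and 0.034 CPM in *tsh1 tsh4* and at 10.5, 6.95, and 8.82 CPM in *tsh4* (log2 fold change −5.38, SE 0.42, adjusted p = 1.22e-06), and fell to 0.0987 ± 0.142 CPM in *tsh1*, against 7.76 ± 2.21 CPM in B73. GRMZM2G069016 was at 0.502, 0.300, and 0.293 CPM in *tsh1 tsh4* and 2.92, 2.33, and 3.61 CPM in *tsh4*, and at 14.3 ± 4.14 CPM in *tsh1* and 78.4 ± 9.77 CPM in B73. GRMZM2G170400 and GRMZM2G463738 rose in *tsh1 tsh4* with log2 fold changes of 1.34 and 2.38, and GRMZM2G414844 fell with −1.07. The calls of GRMZM2G170400, GRMZM2G414844, and GRMZM2G026188 were each lost in some fits without 1 library. The highest adjusted p was 0.123 for GRMZM2G170400 without *tsh1 tsh4* replicate 3, and it was also lost without *tsh1 tsh4* replicate 2 or *tsh4* replicate 2 or 3. It was 0.166 for GRMZM2G414844 without *tsh4* replicate 3, which was also lost without *tsh4* replicate 1 or 2 or *tsh1 tsh4* replicate 2. It was 0.0656 for GRMZM2G026188 without *tsh4* replicate 3, which was also lost without *tsh4* replicate 2 or *tsh1 tsh4* replicate 3.

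The chromosome 7 window holds neither *tsh1* nor *tsh4*, and its nearer end lies 374 placed genes from *tsh4*. Its 9 DEGs (4 higher, 5 lower) included *EREB121*. Only 1 gene of the window was a DEG of *tsh1* against B73, none was shared, and 6 of the 9 had an effect that differed between backgrounds. GRMZM2G043275 was at 32.5, 38.3, and 30.8 CPM in *tsh1 tsh4*, against 119, 102, and 124 CPM in *tsh4*, while *tsh1* and B73 had 112 ± 8.08 and 109 ± 5.70 CPM (log2 fold change −1.76, SE 0.15, adjusted p = 3.50e-06). GRMZM2G057296 was at 7.17, 5.45, and 3.62 CPM in *tsh1 tsh4* and at 25.9, 25.4, and 29.9 CPM in *tsh4*. GRMZM2G093276 was at 0.502, 0.995, and 0.517 CPM in *tsh1 tsh4* and at 14.2, 13.4, and 24.2 CPM in *tsh4*, with 62.8 ± 21.8 CPM in *tsh1* and 83.1 ± 30.2 CPM in B73. Of those that rose, GRMZM2G179090 was at 26.8, 31.1, and 39.6 CPM in *tsh1 tsh4* and 7.06, 7.45, and 9.16 CPM in *tsh4*, and GRMZM2G079632 was at 17.0, 14, and 18.3 CPM and 3.40, 3.87, and 2.73 CPM in the same order. GRMZM5G898371 rose with a log2 fold change of 2.46. GRMZM2G038839 and GRMZM2G127412 fell with −1.14 and −1.31, and their calls were lost without *tsh4* replicate 2 and, for GRMZM2G038839, without *tsh4* replicate 3 or *tsh1 tsh4* replicate 3 (highest adjusted p = 0.152 without *tsh4* replicate 3 and 0.0568 without *tsh4* replicate 2). Whether the lines differ in sequence along these windows was not analysed here. With the placed genes of both windows set aside, 118 DEGs remained, 65 higher and 53 lower, of which 35 were shared with *tsh1* against B73. DEGs that could not be placed were kept in these counts wherever they lie, and *tsh1* itself is one of them.

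**Figure D5:**
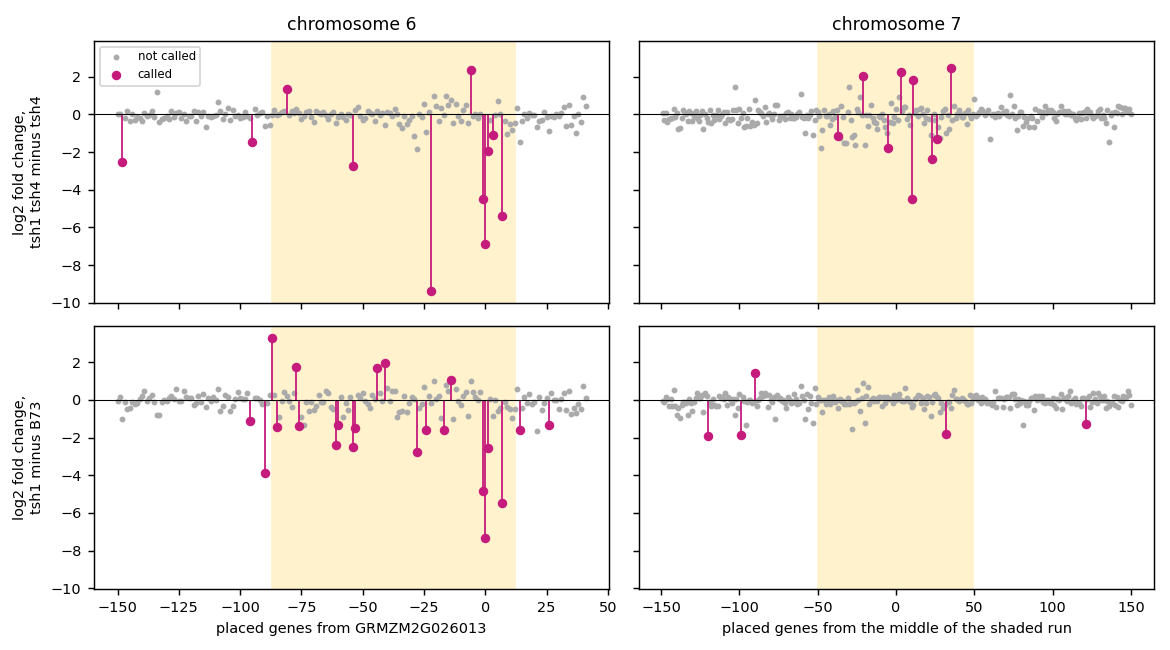
Log2 fold change of placed genes on chromosomes 6 and 7 in *tsh1 tsh4* against *tsh4* (top) and *tsh1* against B73 (bottom), by the number of placed genes from the deletion gene GRMZM2G026013 (left) and from the middle of the window with the most DEGs (right). Stems mark DEGs and shading marks the windows, with 9 DEGs each at the top and 18 and 1 at the bottom.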

How the data were processed

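Per the submitters' processing notes and the study's methods, the authors used Trimmomatic 0.36 for trimming, STAR 2.6.0a for alignment to B73 RefGen_v3, and featureCounts for counting on genes. The authors kept genes above 0.25 CPM in at least 3 libraries, and deposited edgeR 3.22.5 TMM-normalized CPM, a signal per gene, written to 3 decimals. The strand setting and the treatment of multiply mapped reads are not stated. Whole reads were recovered from the deposited signal (100% of values whole within 0.0006 CPM and a small relative tolerance) and used for depth and in count models tried as alternatives (edgeR 4.0.16, DESeq2 1.42.0). The quasi-likelihood test on those reads called 116 genes.

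Group and replicate came from the sample labels. The labels call the replicates biological without naming the plants, and p-values measure the spread between these libraries. The main test was limma 3.58.1 in R 4.3.3 (lmFit, eBayes with trend) on log2(CPM + 0.1), in 1 fit to all 12 libraries, so that the *tsh1* and B73 libraries inform the spread. The limma code was tested on simulated data. The gene lists and named genes were chosen with earlier results of these data known. Named genes were *tsh1*, *tsh4*, *zyb15*, *kn1*, and the deletion genes; study genes that were DEGs; the 12 largest rises and falls with a gene name, a mean of at least 1 CPM in the higher genotype and no overlap, plus 2 each without a name; up to 3 DEGs per family and direction; and the 10 largest differences between backgrounds with a mean of at least 1 CPM. Genes placed by window, overlap or detection, and study genes at an unadjusted p of at most 0.05, were added afterward. Families were defined by gene names instead of descriptions, because the gene table used (RefSeq, Zm-B73-REFERENCE-NAM-5.0) gives names alone. It matched 14381 of 20168 identifiers, 423 of them to more than 1 entry, and its coordinates were not used beyond gene order. A later assembly than that of the counts thus sets this order. Results were recomputed with pseudocounts of 0.01 and 1, on genes with a mean of at least 1 CPM, from the compared genotypes only, without the eBayes trend, with a replicate block, after rescaling to equal totals or centring on the median, by the count models, at an adjusted p of 0.01, and without each library in turn. The count without the genes of the chromosome 6 and 7 windows was added after seeing the data. One marker gene and the summed level of its list are not reported here.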

Additional observations from a re-analysis of the deposited data

Results flagged for a closer look

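The genes below were singled out because the effect of *tsh1* loss in the *tsh4* background differed from that in B73, by the test of the difference itself (limma, adjusted p of at most 0.05). Differences are log2 fold changes of *tsh1 tsh4* over *tsh4* minus those of *tsh1* over B73. Positive differences were 6.89 for GRMZM2G140160, 4.53 for GRMZM2G035726, 4.37 for GRMZM2G129146, 4.06 for GRMZM2G704448, and 3.43 for GRMZM2G472096. They were 3.99 for *m20*, 2.91 for GRMZM5G898371, 2.76 for *sfp1*, 2.63 for *drl2*, 2.29 for GRMZM2G079632, and 2.10 for *EREB121*. Negative differences were −9.23 for GRMZM2G065757, −8.62 for GRMZM2G456853, −7.51 for GRMZM2G120833, −4.21 for GRMZM2G066805, −4.10 for GRMZM2G093276, −4.08 for GRMZM2G381842, −2.23 for GRMZM2G057296, and −1.80 for GRMZM2G043275. For genes at 0 in a genotype the size of the difference depends on the pseudocount.

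In all 12 fits that left out 1 library, 14 of these 19 passed again. The others were *drl2*, *m20*, *sfp1*, GRMZM5G898371, and GRMZM2G079632, which passed in 7, 5, 5, 8, and 4 of the 12 fits. Their highest adjusted p-values were 0.0748 (without *tsh4* replicate 2), 0.0898 (*tsh4* replicate 3), 0.0906 (*tsh4* replicate 2), 0.0700 (*tsh4* replicate 2), and 0.123 (*tsh1 tsh4* replicate 3) in that order.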

How the results depend on the processing

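The 136 DEGs of *tsh1 tsh4* against *tsh4* became 85 with the filter at a mean of 1 CPM, 252 with the edgeR exact test, 214 with DESeq2, and 67 at an adjusted p of 0.01. The 234 DEGs of *tsh1* against B73 became 150 with a pseudocount of 1, 400 with the exact test, 370 with DESeq2, and 135 at 0.01. The 40 shared DEGs became 24, 77, and 19 with a pseudocount of 1, DESeq2, and 0.01, and the 58 genes that differed between backgrounds became 157 with DESeq2 and 31 at 0.01. Leaving out 1 library gave 71 to 160 DEGs of *tsh1 tsh4* against *tsh4*, 156 to 289 of *tsh1* against B73, 24 to 47 shared, and 34 to 84 differing. Of the 136, 70 to 135 were called again in those fits. All other planned counts stayed within 1.5 times. The cause of these shifts was not tested.

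With the replicate block, the counts were 102, 193, 33, and 44, and 101 of the 136 were called again. Same-numbered *tsh1 tsh4* and *tsh4* libraries deviated from their genotype means with correlations of −0.155, 0.118, and 0.106, so the numbers were not taken as pairs. Those of *tsh1 tsh4* and B73 correlated at 0.649, 0.359, and 0.240, and those of *tsh1* and B73 at −0.153, −0.353, and 0.291. Not every library correlated best with its own number.

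The sign of a named gene turned in 5 cases, none of them a DEG. GRMZM2G120833, near the floor, had 0.31 with a pseudocount of 0.01, and −0.23 to 0.25 without 1 library (the highest without *tsh4* replicate 2). *zyb15* ranged from −0.039 (without *tsh1 tsh4* replicate 3) to 0.12, with −0.0079 without *tsh4* replicate 2, and GRMZM2G066805 from −0.42 to 0.020 (without *tsh1 tsh4* replicate 3). Of 49 named DEGs, 28 were called in every alternative. Calls were lost for 8 without the eBayes trend (*m20*, *bHLH23*, *crr2*, *PIP1-1*, *PIF4*, *bHLH7*, *vp9*, *aba1*), 7 with a pseudocount of 0.01 (GRMZM2G027302, *m20*, *BX3*, *BX5*, *aos1*, *crr2*, *vp9*), 7 with the replicate block (*BX3*, *BX5*, *aba1*, *aos1*, *bHLH7*, *crr2*, *vp9*), 6 with a pseudocount of 1 (GRMZM2G472096, GRMZM2G013060, *PIF4*, GRMZM2G414844, *vp9*, GRMZM2G026188), and 3 with the quasi-likelihood test (*m20*, *BX5*, *vp9*). Study genes that passed in some alternative were *drl1*, *lg2*, and *ZmPYL5* (exact test and DESeq2), *ZmAHG1* (exact test), and *ba1* (without *tsh4* replicate 2). Depth limits what can be said of genes under 3 reads, or 0.031 to 0.059 CPM in these libraries.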
